A study of Mus musculus with 6 samples.

Results

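The NADPH oxidase complex was followed through 8 genes in forebrain RNA of mice after acute water avoidance stress (WAS). The members were taken by gene symbol, and Cybb, Cyba, Ncf1, Ncf4, Noxo1, Nox4, Rac1 and Rac2 were each found among the 23282 entries of the count tables. Each of the 6 libraries came from the forebrain, without olfactory bulbs and cerebellum, of a male C57BL/6J mouse aged 8 to 10 weeks. The WAS label covers 3 mice that had water around their platform for 1 h. The 3 controls spent 1 h on a dry one. Tissue was taken straight afterwards, for RNA and for metabolites. No genetic change or drug was involved in either group, and the tissue was a mixture of regions and cell types.

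The NADPH oxidases are membrane enzymes that pass electrons from NADPH to oxygen and so release superoxide or hydrogen peroxide. In the phagocyte form, the catalytic subunit gp91phox (Cybb, also called Nox2) sits in the membrane with p22phox (Cyba). It becomes active when the organizer p47phox (Ncf1) moves with p40phox (Ncf4) and other cytosolic proteins to the membrane and a Rac GTPase joins them. In brain this form is known mainly from microglia. Noxo1 is the relative of p47phox that serves Nox1, while Nox4 works with p22phox and needs no cytosolic organizer.

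In the libraries labelled WAS, Ncf1 was lower and Noxo1 higher than in those labelled control, and these were the members that met the criteria of the study, namely a fold change of at least 1.5 with an unadjusted p under 0.05. They were 2 of 6 members tested, beside 2.49% of all genes and 5.12% of genes with a mean of 10 to 100 reads. Both had been named by the study from these same libraries, so this count is a description only. Neither passed an edgeR adjusted p of 0.05. Rac1, which held at least 95.03% of all reads of the 8 members in every library, was nearly level between the groups. Cyba, Cybb and Rac2 had overlapping groups, and Ncf4 and Nox4 had 0 to 6 reads per library.

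The groups follow the sample labels. Inside the tables, the count column is headed WC in the libraries labelled WAS and WS in those labelled control, and the sources used here do not define these headings. The study lists Ncf1 as raised and Noxo1 as lowered by stress, the reverse of their direction by the labels. Which assignment is right could not be settled here, so each direction below holds for the labels only and would be the opposite one if they were exchanged. The libraries held 9248520 to 10502029 reads in total. Read numbers are given below for replicates 1, 2 and 3 of a group, in this order. Markers of brain regions differed among the libraries, and the part of dissection in this was not tested. The summed level of 10 striatal genes ran from 210 to 2263 CPM (counts-per-million, relative to the library total) in the libraries labelled WAS and from 1136 to 1541 CPM in those labelled control. The vesicular glutamate transporter gene Slc17a6, which is abundant in thalamus, had 1710, 284 and 1339 reads under the WAS label against 402, 304 and 273 under the control label.

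QuantSeq reads the 3′ end of polyadenylated transcripts, so the end of each transcript decides which gene a read is given to. The last 30 bases of the longest coding transcript are shown for the 2 members that met the criteria of the study and for Nox1, whose reads are described with them below. They were read from GENCODE M21 transcripts on GRCm38 (mm10, the build in the submitters' processing notes), 5′ to 3′, with the polyadenylation signal AATAAA in capitals. That hexamer, sought on the transcript strand, lies in the last 30 bases for 51.4% of 21842 protein-coding genes.
Ncf1, chr5:134220260-134220289, minus strand: agtgtaagctgAATAAAtctttgcctcccc
Noxo1, chr17:24700500-24700529, plus strand: tctaAATAAAactggaatgacttcacccaa
Nox1, chrX:134086421-134086450, minus strand: ataaaaagaaaaaagttataattttggcta

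The surroundings of these ends differ. All of the last 500 bases of the Noxo1 transcript lie in exons of Tbl3, a gene of the opposite strand, and 308 of the last 500 bases of Tbl3 lie in exons of Noxo1. The end of Ncf1 lies inside Gtf2ird2, again on the opposite strand, and 0 of its last 500 bases fall in a Gtf2ird2 exon. Within the same 500 bases, 7 windows of 50 bases of Ncf1, which may overlap each other, also occur in a Zhx3 transcript of the same orientation. For Rac1, all of the last 500 bases lie in exons of Daglb on the opposite strand. Whether strand was used in the counting is not given in the sources used here.

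Nox1, the oxidase served by Noxo1 and known mostly from colon epithelium, had 1666, 1237 and 1472 reads under the WAS label and 1545, 1420 and 1420 reads under the control label. Its transcript shares 399 of its last 500 bases with exons of Cstf2 on the opposite strand. Cstf2, a cleavage factor for polyadenylation, had 2211, 1649 and 1930 reads against 2032, 1928 and 1919. The reads of Nox1 stood at 75.4%, 75.0% and 76.3% of those of Cstf2 under the WAS label and at 76.0%, 73.7% and 74.0% under the control label. This share was thus nearly constant while each gene varied. Which transcript these reads came from was not tested, and Nox1 reads are not taken here as a measure of the oxidase.

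The same share was not constant for Noxo1. Noxo1 reads were 53.5%, 52.0% and 30.8% of Tbl3 reads under the WAS label and 23.0%, 13.4% and 21.6% under the control label. Tbl3, which encodes a WD-repeat protein, itself had 71, 75 and 78 reads against 100, 82 and 74, and its log2 fold change was -0.15 (standard error, SE, 0.19). The share of Noxo1 rested on 11 to 39 Noxo1 reads per library and that of Nox1 on 1237 to 1666 Nox1 reads. Counting error therefore spreads the share of Noxo1 more widely, and the constancy of the 2 shares cannot be compared directly. How many of the reads of Noxo1 came from Tbl3 transcripts was not tested. Rac1 reads were 927% to 1340% of Daglb reads over the 6 libraries.

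**Figure D1:**
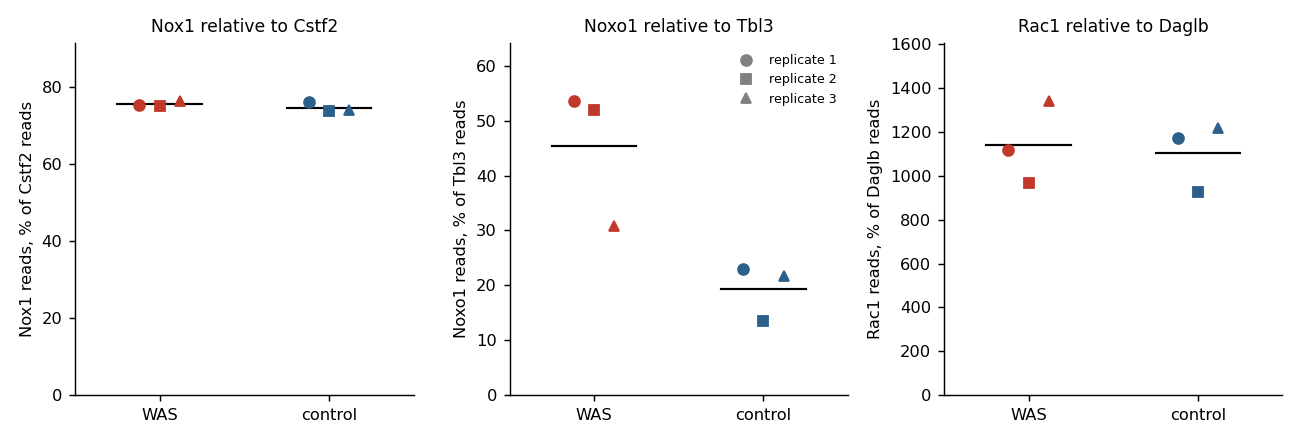
Reads of Nox1, Noxo1 and Rac1 as a percent of the reads of the gene whose exons overlap their transcript end on the other strand (vertical axes from 0), for each library labelled WAS (red) or control (blue), with black lines at the group means and symbols for replicates. The share of Nox1 lies between 73.7% and 76.3% in every library and that of Noxo1 between 13.4% and 53.5%. The first rests on 1237 to 1666 reads of Nox1 per library and the second on only 11 to 39 reads of Noxo1.

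Among the catalytic subunits, Cybb (chrX:9435252-9487771, minus strand) was scarce. Its reads numbered 11, 8 and 7 under the WAS label and 8, 1 and 12 under the control label. Control replicate 2 was lowest and control replicate 3 highest, so that the control libraries enclosed those labelled WAS. The mean levels were 0.886 ± 0.197 CPM (SD, n = 3) for WAS and 0.687 ± 0.557 CPM (SD, n = 3) for the control. With a log2 fold change of 0.33 (95% interval -1.19 to 1.85, edgeR adjusted p = 0.962), differences in Cybb as large as 1 on the log2 scale were not detectable at this depth. The sign rested on control replicate 2, without which the log2 fold change was -0.18.

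Nox4 (chr7:87246096-87398710, plus strand), which makes hydrogen peroxide and is known from kidney and vessel walls, had 2, 1 and 4 reads under the WAS label and 1, 3 and 0 under the control label. The totals were 7 reads (95% exact Poisson interval 2.81 to 14.4) among 29.3 M and 4 reads (1.09 to 10.2) among 30.9 M. These intervals cover counting error only, and reads without molecular identifiers are not independent molecules. Nox4 fell below the filter on low counts and was not tested across genes. By an exact two-sided permutation test over the libraries its CPM gave p = 0.4, where 3 libraries against 3 cannot go below 0.1.

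Cyba (chr8:122424776-122432930, minus strand), the partner that stabilizes Cybb and Nox4, had 23, 32 and 47 reads under the WAS label and 20, 24 and 24 reads under the control label. Scaled to the library totals, WAS replicates 2 and 3 lay above all control libraries at 3.46 and 4.71 CPM, while WAS replicate 1, at 2.28 CPM, lay among them. The group levels were 3.48 ± 1.21 CPM (SD, n = 3) and 2.21 ± 0.266 CPM (SD, n = 3). The log2 fold change of 0.62 (SE 0.35, 95% interval -0.16 to 1.39) had an unadjusted p of 0.107 and an edgeR adjusted p of 0.753. Without WAS replicate 1 it became 0.85 and met the criteria of the study, and without WAS replicate 3 it was 0.34.

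**Figure D2:**
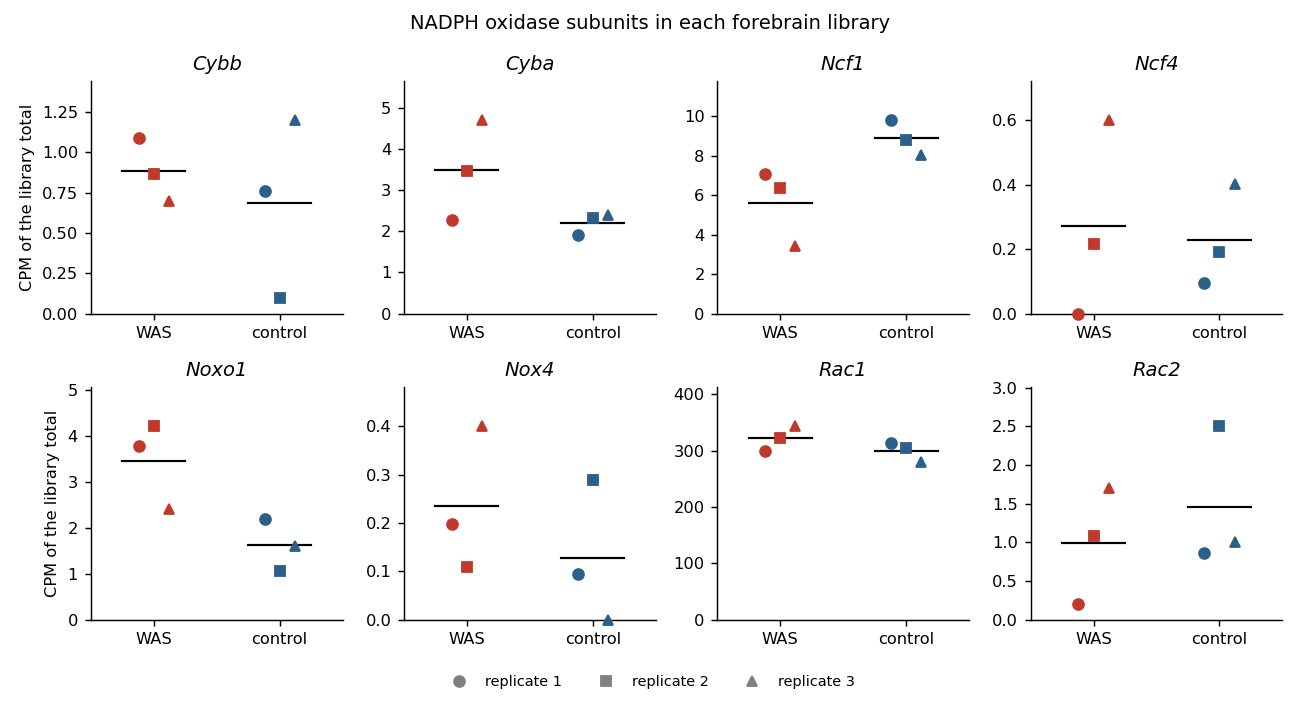
Level of each member in CPM of the library total (vertical axes from 0, each with its own scale) in the 3 libraries labelled WAS (red) and the 3 labelled control (blue), with black lines at the group means and symbols for replicates. The groups separate for Ncf1 and Noxo1, Rac1 lies near 300 CPM throughout, and Ncf4 and Nox4 stay at or below 0.601 CPM.

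Of the cytosolic organizers, Ncf1 (chr5:134220053-134229625, minus strand) had 71, 59 and 34 reads under the WAS label and 103, 91 and 80 reads under the control label. All 3 control libraries, at 8.02 to 9.81 CPM, lay above all 3 libraries labelled WAS, at 3.41 to 7.05 CPM. The fitted level in the libraries labelled WAS was 0.617 times that in the control, with a 95% interval of 0.412 to 0.926. The unadjusted p was 0.0238 and the edgeR adjusted p was 0.625, at rank 576 of the 15239 genes tested. WAS replicate 3 was the lowest library, and without it the log2 fold change of Ncf1 went from -0.70 to -0.44. It also missed the criteria without control replicate 1 (-0.63) and without control replicate 2 (-0.70).

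Noxo1 (chr17:24696234-24700529, plus strand) went the other way, with 38, 39 and 24 reads under the WAS label and 23, 11 and 16 reads under the control label. At 2.40 CPM, WAS replicate 3 stood close to control replicate 1 at 2.19 CPM, so the groups did not overlap but nearly touched. The fitted fold change was 2.08 with a 95% interval of 1.15 to 3.75, an unadjusted p of 0.0195 and an edgeR adjusted p of 0.616. Control replicate 2 was the lowest library, and without it the log2 fold change of Noxo1 went from 1.06 to 0.83, outside the criteria of the study. The same held without WAS replicate 1 (0.98) and without WAS replicate 2 (0.89).

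Ncf1 and Noxo1 were named by the study from these same libraries, each with the direction opposite to that by the labels, so their separation is a description and no independent evidence. Over all genes tested, 1.82% met the criteria as higher and 0.676% as lower in the libraries labelled WAS, or 2.49% in either direction. Among the 4570 genes with a mean of 10 to 100 reads, where Ncf1, Noxo1, Cyba and Rac2 lie, the share was 5.12%. The members counted 1 higher and 1 lower of 6 tested. Groups without overlap in CPM were found for 2 of the 6, against 12.2% of all genes tested. An adjusted p under 0.05 was reached by 0 of 6 members and 0% of all genes with edgeR, and an unadjusted p under 0.05 by 2 members and 7.24% of all genes. With DESeq2 and with limma the count of members at an adjusted p under 0.05 was also 0, while over all genes it was 22 with DESeq2 and 0 with limma. The median log2 fold change of the 6 tested members was 0.20, beside 0.00088 over all genes.

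A ratio inside each library does not depend on scaling. There were 0.535, 0.661 and 0.706 Noxo1 reads for each Ncf1 read under the WAS label, and 0.223, 0.121 and 0.200 under the control label. Each library labelled WAS thus had a higher ratio of Noxo1 to Ncf1 than each control library, in the direction that follows from the values of the 2 genes above. On the log2 scale with 1 read added to each gene, the ratio was -0.65 ± 0.21 (SD, n = 3) against -2.44 ± 0.44 (SD, n = 3). Since both genes separated the groups in opposite directions, their ratio had to separate them too, and no test is given.

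**Figure D3:**
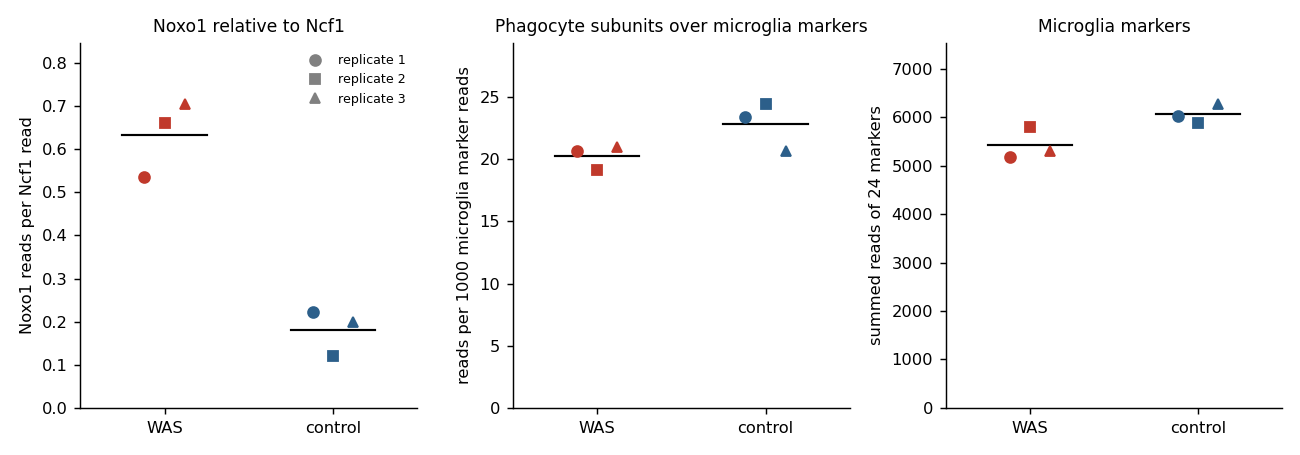
Noxo1 reads per Ncf1 read, summed reads of Cyba, Cybb, Ncf1, Ncf4 and Rac2 per 1000 reads of 24 microglia markers, and summed reads of those markers (vertical axes from 0), for each library labelled WAS (red) or control (blue), with black lines at the group means and symbols for replicates. The first ratio is 0.535 to 0.706 in the libraries labelled WAS and 0.121 to 0.223 in those labelled control, while the second lies between 19.1 and 24.5 throughout.

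Ncf4 (chr15:78244801-78262580, plus strand), whose p40phox binds a phosphoinositide on phagosome membranes, had 0, 2 and 6 reads under the WAS label and 1, 2 and 4 reads under the control label. Its totals of 8 reads (95% exact Poisson interval 3.45 to 15.8) and 7 reads (2.81 to 14.4) leave a difference undetectable at this depth. It was not tested across genes, and the exact permutation test of its CPM gave p = 0.8. The highest library of each group was replicate 3, and the groups overlapped fully.

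The GTPase subunits were far apart in level. Rac1 (chr5:143503634-143528036, minus strand), the GTPase of most tissues and a regulator of actin in neurons, had 3017, 2977 and 3431 reads under the WAS label and 3292, 3160 and 2793 reads under the control label. The range of 300 to 344 CPM in the libraries labelled WAS overlapped that of 280 to 313 CPM in the control. The log2 fold change was 0.068 (95% interval -0.12 to 0.25), which as a fold runs from 0.922 to 1.19, with an edgeR adjusted p of 0.929. Rac1 was the most precisely measured member, and its interval lies inside a fold change of 1.5 in each direction.

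Rac2 (chr15:78559167-78572783, minus strand), the GTPase of blood-derived cells, had 2, 10 and 17 reads under the WAS label and 9, 26 and 10 reads under the control label. The lowest library was WAS replicate 1 and the highest control replicate 2, with the other libraries mixed between them. Its log2 fold change of -0.58 (95% interval -2.06 to 0.89, edgeR adjusted p = 0.920) became -0.098 when WAS replicate 1 was left out and 0.058 when control replicate 2 was. Of the reads of Rac1, Rac2 and Rac3 together, Rac1 held 97.7% to 98.8%, Rac2 0.0655% to 0.807% and Rac3 1.12% to 1.99%.

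**Figure D4:**
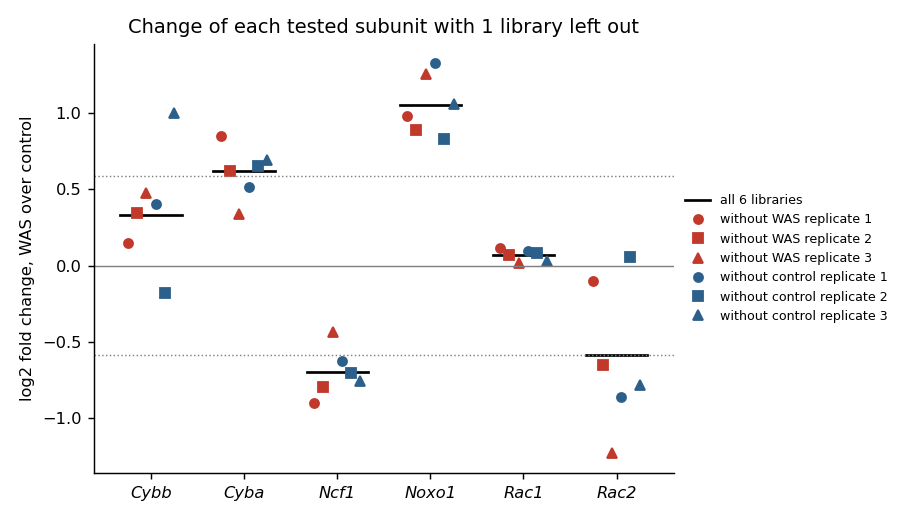
Log2 fold change (labelled WAS over labelled control, vertical axis) of the 6 tested members with all libraries (black line) and with 1 library left out (red symbols for a WAS library, blue for a control library). Dotted lines mark a fold change of 1.5. Ncf1 stays below 0 and Noxo1 above 0.82 in each fit, whereas Cybb and Rac2 cross 0 without control replicate 2.

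By mean reads per library the members ranked from Rac1 (3112 reads) through Ncf1 (73.0), Cyba (28.3), Noxo1 (25.2), Rac2 (12.3) and Cybb (7.83) to Ncf4 (2.50) and Nox4 (1.83). The counts were not divided by transcript length, because a 3′ method takes reads from the transcript end only, and this order is one of reads and not of protein. From Cyba downward, each member overlapped the next in its range over the libraries. Ncf1 overlapped Cyba only through WAS replicate 3, and Rac1 stood apart from all others.

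Cybb, Cyba, Ncf1, Ncf4 and Rac2 belong to the phagocyte form, and their reads were set against microglia markers. In bulk tissue, fewer cells of a type and less RNA per cell cannot be told apart. The 24 markers were all measured, from 32.0 to 1189 mean reads, with Csf1r and Cx3cr1 the most abundant. Their summed level was 515 to 628 CPM in the libraries labelled WAS and 567 to 630 CPM in those labelled control. In the fit, 20 markers were below 0 and 4 above, with a median log2 fold change of -0.14, and 0 met the criteria of the study. Their part in the lower Ncf1 was not tested. For each 1000 marker reads there were 20.6, 19.1 and 20.9 reads of the phagocyte subunits under the WAS label and 23.4, 24.5 and 20.7 under the control label. The groups overlapped, and the exact two-sided permutation p was 0.2. On the same scale Ncf1 alone was at 13.7, 10.2 and 6.42 against 17.1, 15.5 and 12.7 (exact permutation p = 0.2), so that WAS replicate 1 passed control replicate 3. Cyba per 1000 marker reads was at 4.44, 5.51 and 8.87 against 3.32, 4.08 and 3.82 and did not overlap (exact permutation p = 0.1, the smallest possible). In CPM the groups of Cyba overlapped (exact permutation p = 0.3). Cybb, Ncf4 and Rac2 per 1000 marker reads overlapped as well (exact permutation p = 0.5, 0.8 and 0.7).

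Other cells known to carry this oxidase are neutrophils and perivascular macrophages. Of 11 neutrophil markers found in the tables, 4 passed the filter, Elane was at 0 in all libraries and Mpo at 0 in all but control replicate 3. Of the 4, 2 were above and 2 below 0, and the most abundant, Mmp9, was at 0.72 without meeting the criteria of the study. Of these 4 only Mmp9 had groups that did not overlap, beside 12.2% of all genes tested. The summed level of the list was 4.11 to 4.17 CPM in the libraries labelled WAS and 3.05 to 5.39 CPM in those labelled control. The 8 perivascular macrophage markers summed to 20.003 to 25.3 CPM against 15.2 to 24.96 CPM. Of the 6 tested, 4 were above and 2 below 0, and 1 met the criteria of the study, beside 2.49% of all genes. This was Pf4, a chemokine gene, with a log2 fold change of 0.73 (edgeR adjusted p = 0.681), while the most abundant markers Lyve1 and Mrc1 were at -0.027 and -0.24. Cd209f, which was not tested and is named after its values were seen, had 0, 1 and 0 reads under the WAS label and 9, 4 and 5 under the control label. Hemoglobin and other erythroid genes were above 0 in 7 of 7 cases, with a median log2 fold change of 0.36 and overlapping sums of 1908 to 3223 CPM and 1718 to 2254 CPM. Hbb-bs and Hbb-b1, and likewise Hbb-bt and Hbb-b2, had nearly equal counts in every library, so the same reads may stand in both entries of a pair and the 7 are not separate measurements. Summed markers of vessel cells, in which Nox4 is known, overlapped between the groups. The sums were 221 to 233 CPM and 217 to 244 CPM for the endothelium. For pericytes and smooth muscle they were 98.1 to 106 CPM and 89.8 to 100.3 CPM. Of the 8 markers in this last list, 2 were above and 6 below 0. Vtn alone did not overlap, at 25.4, 22.7 and 25.2 CPM under the WAS label against 19.1, 17.8 and 19.6 CPM. Its log2 fold change was 0.34 (edgeR adjusted p = 0.616), and 12.2% of all genes tested did not overlap.

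Rac1 is expressed by most cells, and the part of other cell types in its values was not tested. Astrocyte markers summed to 4665 to 4819 CPM in the libraries labelled WAS and 4561 to 4606 CPM in those labelled control. Neuron markers summed to 5795 to 6208 CPM against 6409 to 6939 CPM, and for both lists the sums did not overlap. Of the 8 astrocyte markers 5 were above and 3 below 0, and 3 had an unadjusted edgeR p under 0.05. These were S100b (0.32), Aqp4 (0.36) and Aldoc (0.22), while the most abundant, Slc1a2, was at -0.10. Of the 10 neuron markers 3 were above and 7 below 0, and 4 had an unadjusted edgeR p under 0.05. They were Rbfox3 (-0.36), Slc17a7 (-0.32), Syt1 (-0.24) and, going the other way, Slc17a6 (1.78). Over all genes 7.24% had such a p. Single genes without overlap were S100b, Slc17a7 and Syt1, beside 12.2% of all genes tested. Slc17a6 alone met the criteria of the study, beside 2.49% of all genes. Oligodendrocyte markers, at 5709 to 7767 CPM and 5983 to 7016 CPM, and choroid plexus markers, at 332 to 1731 CPM and 310 to 1811 CPM, overlapped. The choroid plexus sums were lowest in WAS replicate 1, where Rac2 was also lowest, and in control replicate 2, where Cybb was lowest and Rac2 highest, and the part of this in their values was not tested.

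The rest of the oxidase family was taken from a list of 12 genes, of which 11 were found under their symbols and 5 tested. None of the 5 met the criteria of the study, with 0 at an unadjusted p under 0.05. Rac3, the neuronal Rac, had 35, 36 and 44 reads under the WAS label and 43, 36 and 57 under the control label, its log2 fold change being -0.21 (95% interval -0.83 to 0.41). Rap1a and Rap1b, small GTPases found with the phagocyte oxidase, were at 0.052 (-0.20 to 0.30) and 0.036 (-0.28 to 0.35). Hvcn1, the proton channel that balances the charge moved by the oxidase, was at 0.040 (-0.82 to 0.90), and Nox1, with the reserve given above, at 0.031 (-0.17 to 0.24).

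Other genes of the family had few reads or none. Noxa1, the activator that works with Noxo1, and Nox3, the oxidase of the inner ear, had 0 reads in every library, as did Duox2 and its maturation factor Duoxa2. A count of 0 in a single library leaves an expected count of up to about 3 reads possible there. For genes at 0 in every library the limit is lower. Duox1 had 7 reads in WAS replicate 1 and 0 elsewhere, and Duoxa1 had 2 reads in each of control replicates 2 and 3 and 0 elsewhere.

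**Figure D5:**
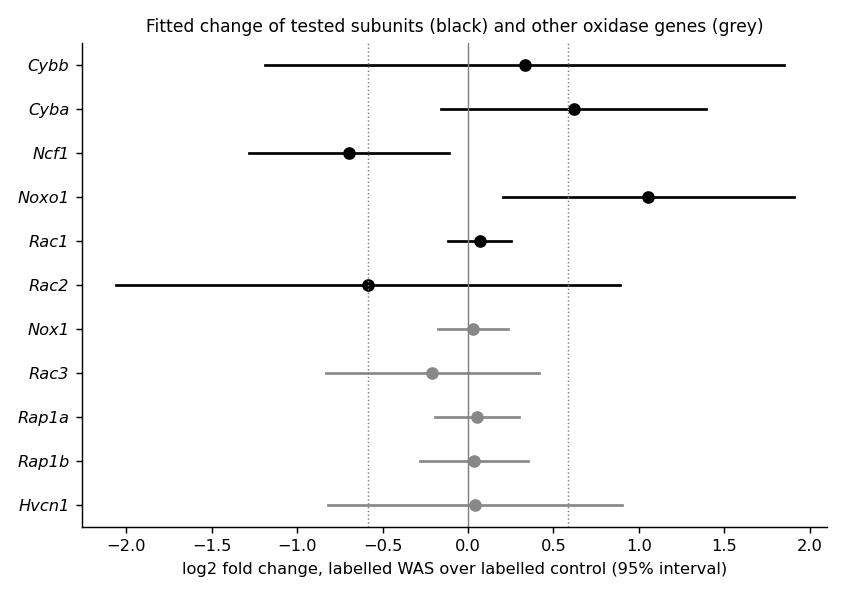
Log2 fold change (labelled WAS over labelled control, horizontal axis) with its 95% interval for the 6 tested members (black) and the 5 other tested oxidase genes (grey). Dotted lines mark a fold change of 1.5. The intervals of Ncf1 and Noxo1 leave out 0, and those of Cybb and Rac2 are the widest among the members.

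Genes that switch the complex on or control Rac were taken as a list of 27, of which 26 were tested, 9 above and 17 below 0, with a median log2 fold change of -0.098. The criteria of the study were met by 1 gene, or 3.85% beside 2.49% of all genes. This was Prkcd, a protein kinase C that phosphorylates p47phox and is also a marker of thalamic neurons. It had 128, 87 and 225 reads under the WAS label and 65, 41 and 103 under the control label. WAS replicate 2, at 9.41 CPM, lay below control replicate 3 at 10.3 CPM, so the groups overlapped. Its log2 fold change was 1.09 (SE 0.36, edgeR adjusted p = 0.583). Without WAS replicate 2 the edgeR adjusted p of Prkcd was 0.0378, while without WAS replicate 3 or control replicate 2 it missed the criteria of the study.

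Groups that did not overlap were found for 3 of the 26, Tiam1, Prkca and Prkcz, beside 12.2% of all genes, and their differences were smaller. Tiam1, an exchange factor that loads Rac with GTP, was at 97.2, 101 and 100.2 CPM under the WAS label and at 79.3, 81.5 and 79.4 CPM under the control label, a log2 fold change of 0.27 (SE 0.080, edgeR adjusted p = 0.539). Prkcz and Prkca, further kinases of p47phox, were lower by the labels, with -0.27 (SE 0.092) and -0.20 (SE 0.082). The most abundant genes of the list were the protein kinase C genes Prkcb and Prkce, with -0.31 (SE 0.14) and -0.062 (SE 0.073). Tiam1, Prkca and Prkcz were singled out after their values were seen.

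The genes most like a member over the 6 libraries were sought among 11167 or 11168 other genes with a mean of at least 50 reads, by the root mean square difference of log2 CPM centered on each gene's mean. For Ncf1, which itself spread by 0.49 on this scale, they were Cmya5 (0.12) and Ovol2 (0.13). Cmya5 had 81, 69 and 42 reads under the WAS label and 97, 106 and 93 under the control label. Ovol2 had 99, 81 and 54 reads against 142, 157 and 106. The study lists Ovol2 as raised by stress, which is again the reverse of its direction by the labels. For Noxo1, with a spread of 0.61, they were 2010320M18Rik (0.29) and Cyp4v3 (0.32), which were less close. For Cyba (spread 0.40) they were Prkg2 (0.13) and Alpl (0.15), and for Rac1 (spread 0.077) L1cam (0.019) and Dazap2 (0.025). With 6 libraries and this many genes, such a likeness is a description only.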

How the data were processed

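Total RNA of 3 mice per group was made into oligo-dT-primed QuantSeq 3′ mRNA-Seq libraries, 1 per mouse. Reads were aligned by the authors with Bowtie2, both unique and multiple alignments entered the gene counts made with Bedtools, and these counts were deposited before normalization. Genes that share sequence can therefore share reads. Totals were 9248520 to 10502029 counts.

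Counts were tested with edgeR 4.0.16 (TMM scaling, quasi-likelihood test, R 4.3.3) on the 15239 of 23282 entries with a mean log2(quantile-normalized count + 1) of at least 2, with Benjamini-Hochberg adjustment over all of them. This is a reading of the study's cutoff. CPM are relative to the library total. The SE of a log2 fold change was obtained from its F value. The scripts were tested on simulated data. Alternatives were total-count scaling, DESeq2 1.42.0, limma 3.58.1, other filters, a replicate block and each library left out. The p-values measure the spread between mice of this experiment. The members and gene lists were chosen with earlier results of these data known. Named were the members, the listed oxidase genes, called or abundant regulators, abundant markers, genes overlapping a member's transcript end and the genes most like a member. Others, such as Tiam1, Prkca, Prkcz, Cstf2, Gfer, Pf4, Slc17a6, Cd209f, Elane and Mpo, were chosen after their values were seen. So were S100b, Aqp4, Aldoc, Rbfox3, Slc17a7, Syt1 and Vtn. The list entry Cybc1 was not analysed here. A further gene is not reported here. Transcript ends came from GENCODE M21 on GRCm38, and protein sequences were not used here.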

Additional observations from a re-analysis of the deposited data

How the results depend on the processing

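The number of members meeting the criteria of the study was 2 with total-count scaling, DESeq2, limma, no filter, edgeR's own filter and the replicate number as a block, and 0 to 2 with a library left out (0 without control replicate 2). The count at an adjusted p under 0.05 was 0 throughout. Among the regulators the count was 0 with limma in place of 1, and 0 to 3 with a library left out (0 without WAS replicate 3 or control replicate 2). The 3 genes without WAS replicate 2 were Prkcd (1.33), Tiam2 (-0.83) and Vav3 (0.75), with edgeR adjusted p of 0.0378, 0.00654 and 0.120. With all libraries Tiam2 was at -0.41 and Vav3 at 0.43. For the other oxidase genes it was 0 in every setting. Ncf1 ran from -0.90 to -0.44 and left the criteria without WAS replicate 3 and without either of control replicates 1 and 2. Noxo1 ran from 0.83 to 1.33 and left them without either of WAS replicates 1 and 2 and without control replicate 2. Without control replicate 2, Cybb turned to -0.18 and Rac2 to 0.058, and the other extremes with a library left out were 1.00 for Cybb (without control replicate 3) and -1.23 for Rac2 (without WAS replicate 3). The cause was not tested. Over all genes, WAS replicate 2 left out gave 825 calls and 491 at an adjusted p under 0.05, in place of 380 and 0. With a library left out, the WAS minus control difference was 1.53 to 1.94 for the log2 ratio of Noxo1 to Ncf1 and -3.71 to -1.82 for the phagocyte reads per 1000 marker reads. edgeR's own filter removed Cybb. The replicate block kept 2 members and gave 417 calls over all genes, 49 of them at an adjusted p under 0.05, Prkcd among them (0.0445 by edgeR). Same-numbered libraries deviated together only weakly (correlations across genes of 0.060, 0.077 and 0.087), under the limit of 0.1, although each library correlated best with its own number. At 0 to 12 reads, Cybb, Ncf4 and Nox4 were limited by depth.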

Other observations

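Gfer, a sulfhydryl oxidase gene that lies just upstream of Noxo1 on the opposite strand, was singled out after its values were seen. It had 158, 112 and 137 reads in replicates 1, 2 and 3 under the WAS label and 120, 103 and 115 under the control label. Its CPM did not overlap between the groups, with 12.1 to 15.7 CPM in the libraries labelled WAS and 9.92 to 11.5 CPM in those labelled control. The same held for 12.2% of all genes tested. On the log2 scale it differed by 0.30 (SE 0.17, edgeR adjusted p = 0.741). Gtf2ird2, which surrounds the end of Ncf1, had 167, 105 and 112 reads against 170, 101 and 148 and differed by -0.092 on the log2 scale (SE 0.22). Zhx3, which shares a short sequence with the end of Ncf1, had 98, 66 and 68 reads against 59, 77 and 110. Under the WAS label the CPM of both genes fell from replicate 1 to 3, as that of Ncf1 did. Under the control label Ncf1 fell in the same order, and these 2 genes did not. Their groups overlapped, and shared reads were not tested.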
